A study of Mus musculus with 6 samples.

Results

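A set of 45 genes for actin itself and for the proteins that hold actin monomers or cut, cap, extend, bundle and coat actin filaments was followed in mouse retina with a conditional knockout (CKO) of Cyfip2. The set was drawn up by gene symbol, and all 45 symbols were found among the 24346 symbols of the expression files. The data comprise 3 CKO and 3 wild-type (WT) libraries of retinal messenger RNA, with 1 level per gene and library in FPKM, a read count scaled to transcript length and to library size. The labels name the genotypes Cyfip2 CKO and WT and the tissue retina. The sources used here do not give the Cre driver, the cells it acts in, age, sex, strain or any pooling of animals. Whether each sample is a different animal is not stated either, so the p-values measure sample-to-sample spread that may be technical. Of the 45 genes, 43 averaged 1 FPKM or more across the 6 libraries and were tested, and each of these also averaged 1 FPKM or more in both groups taken singly. Just inside that limit lay Diap2 (1.23 FPKM) and Wipf1 (1.42 FPKM), and outside it Tpm2 (0.631 FPKM) and Was (0.134 FPKM).

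Actin filaments grow by adding monomers at their barbed end and are taken apart by cofilin, while profilin and the beta-thymosins hold and deliver the pool of free monomers. Formins and Ena/VASP proteins build straight filaments, and the WAVE complex, of which the Cyfip2 protein can be a subunit, switches on the Arp2/3 complex to build branched ones. In the retina actin filaments serve growth cones and dendrites, the junctions of the outer limiting membrane and the forming discs of photoreceptor outer segments. Transcript levels, which are what these data hold, do not measure how much actin is in filaments.

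Cyfip2 was at 8.33, 10.2 and 11.2 FPKM in CKO libraries 1 to 3, against 35.5, 63.1 and 62.3 FPKM in WT libraries 1 to 3. Every CKO library was below every WT library, and WT 1 was the lowest of the WT libraries. The log2 fold change of Cyfip2 was -2.29 (SE 0.21, limma adjusted p = 0.0239); over 16 alternative fits it lay between -2.55 and -2.15, with adjusted p-values of 0.000985 to 0.182. Here and throughout, fold changes are CKO over WT on the scale of log2(FPKM + 1). The adjusted p was above 0.05 in 8 of them, namely without the filter, without the variance trend, with robust moderation, and on leaving out CKO 1, CKO 2, CKO 3, WT 2 or WT 3. The retinal label was checked against markers of cones, bipolar, amacrine, horizontal and ganglion cells and Muller glia, each of which was found; their summed levels are given with the last results. Absolute depth is unknown, since FPKM holds no counts. Low values step in whole reads, and these steps give depth relative to WT 1. It was 1.034, 1.31 and 1.197 for CKO libraries 1 to 3, and 1.085 and 1.069 for WT 2 and WT 3.

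The genes for beta-actin and gamma-actin, Actb and Actg1, had the smallest p-values of the set, and both were lower in every CKO library than in every WT library. Neither passed adjustment over all genes. Their products, the cytoplasmic actins of nearly all cells, differ in a few residues close to the start of the protein. The first 60 coding bases of each are shown to let a reader see how alike the genes are at the stretch that tells the proteins apart; capitals mark the 9 bases at which they differ. The sequences are from GENCODE M21 transcripts (GRCm38).
Actb: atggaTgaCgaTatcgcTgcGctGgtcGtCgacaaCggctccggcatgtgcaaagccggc
Actg1: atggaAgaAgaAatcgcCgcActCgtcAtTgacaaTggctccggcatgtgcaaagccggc

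Over their full coding length of 1128 bases the genes shared 1000 bases, or 88.7%. Of all 50-base stretches in the longest coding transcript, 14.2% for Actb and 56.7% for Actg1 also occurred in transcripts of at least 1 other gene, among 18 other genes for Actb and 22 for Actg1. Here and below, stretches were matched in either orientation, so genes that overlap on either strand can count among these. The sources used here do not say how reads that fit several places were counted, so the level of each actin gene is uncertain to that extent. Gm23419 and Mir6935 overlap 5.5% of the exonic bases of Actg1 on its own strand, and these bases may already count among the shared stretches.

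Actb was at 262, 273 and 302 FPKM in CKO libraries 1 to 3, against 305, 332 and 364 FPKM in WT libraries 1 to 3. The groups did not overlap, but the highest CKO library and the lowest WT library were only just apart. Mean levels of Actb, in FPKM with the SD over n = 3 libraries, were 279 ± 20.6 for CKO against 334 ± 29.2 for WT, a ratio of 0.836. Its log2 fold change came to -0.26 (SE 0.077, 95% confidence interval -0.43 to -0.079), with an unadjusted p of 0.0106 and an adjusted p of 0.504 by limma. The gene occupies chr5:142903115-142906754 on the minus strand (GRCm38).

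Actg1 was at 476, 499.7 and 552 FPKM in CKO libraries 1 to 3, against 558, 581 and 632 FPKM in WT libraries 1 to 3. CKO 3 was again the highest CKO library, close below WT 1. Mean levels of Actg1, in FPKM with the SD over n = 3 libraries, were 509 ± 39.1 for CKO against 590.3 ± 38.0 for WT, a ratio of 0.863. For Actg1 the log2 fold change came to -0.21 (SE 0.071, 95% confidence interval -0.38 to -0.050), with an unadjusted p of 0.0167 and an adjusted p of 0.538 by limma. The gene occupies chr11:120345690-120348542 on the minus strand (GRCm38). In bulk tissue, fewer cells of a type and less RNA per cell cannot be told apart, for the actins or for any gene that follows.

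The summed level of both actins was 737, 773 and 854 FPKM in CKO libraries 1 to 3, against 863, 913 and 996 FPKM in WT libraries 1 to 3. The other 43 genes of the set together had 2788.5 to 2826.1 FPKM in CKO, inside the WT range of 2747.5 to 2870.5 FPKM. Within the actin sum, Actb made up 35.5%, 35.4% and 35.3% in CKO libraries 1 to 3, against 35.4%, 36.3% and 36.5% in WT libraries 1 to 3. WT 1 stood with the CKO libraries, and the mean share differed by -0.69 percentage points (exact permutation test, two-sided, p = 0.2).

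Actin genes are classical targets of serum response factor, which binds a motif named the CArG box. The RefSeq promoter of Actg1 (GRCm38.p6, chr11:120348446-120348745 on the minus strand) is shown as the 1 of 57 promoters searched for the set that held the motif. The window ran from 250 bases before to 50 bases after the transcription start. Capitals mark the CArG box of 10 bases, which begins 90 bases upstream of the start.
Actg1 promoter: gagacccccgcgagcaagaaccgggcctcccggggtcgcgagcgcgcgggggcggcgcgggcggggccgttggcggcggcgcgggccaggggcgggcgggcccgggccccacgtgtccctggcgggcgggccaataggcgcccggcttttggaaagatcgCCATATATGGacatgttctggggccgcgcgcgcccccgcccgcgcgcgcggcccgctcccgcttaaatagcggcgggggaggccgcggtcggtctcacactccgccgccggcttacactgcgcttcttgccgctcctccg
The table matched 57 promoters of 41 genes of the set, so that 1.75% held the motif, against 1.63% of all 32851 promoters. The motif is its own reverse complement, so both strands were searched at once. Actb, Cttn, Diaph1 and Pak2 had no promoter in the table, so theirs were not searched for the motif. A match describes these letters and is not evidence of binding.

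**Figure D1:**
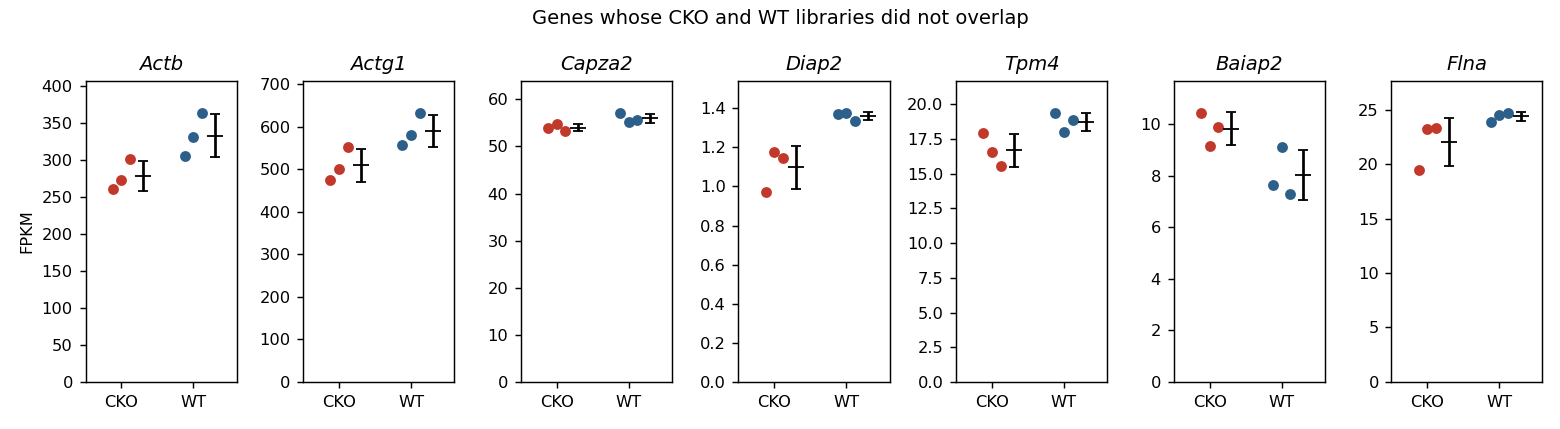
FPKM (vertical axes) of the 7 tested genes whose CKO (left) and WT (right) libraries did not overlap, 1 point per library, with the group mean and SD (n = 3 each). Actb, Actg1, Capza2, Diap2, Tpm4 and Flna lie lower in CKO and Baiap2 higher, and for several genes the gap between the groups is small against the spread within them.

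Across the whole set, 0 of 43 genes passed an adjusted p of 0.05 by limma in either direction. Among all 13215 tested genes 2 passed higher in CKO (0.0151%) and 1 lower (0.00757%), or 0.0227% in all (3 genes, and 1 without WT 2). With an unadjusted p below 0.05 there was 1 gene of the set higher in CKO, Baiap2 (2.33% of the set, against 3.52% of all tested genes), and 3 lower, Actb, Actg1 and Tpm4 (6.98%, against 4.36%). In total these were 4 genes, or 9.3% against 7.88%, and leaving out 1 library gave 1 gene without WT 3, 6 without WT 2 and 2 without any of the others.

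The groups did not overlap for 7 genes, or 16.3% of the set against 13.9% of all tested genes. Of these, 1 was higher in CKO (2.33%, against 6.96%) and 6 were lower (14.0%, against 6.95%). The totals over both directions, 9.3% and 16.3%, are near the background and are no result about the set. The split of the non-overlapping genes by direction was farther from the background and was not tested. Fold changes lay above 0 for 17 genes and below 0 for 26, with a median log2 fold change of -0.0197, beside -0.0016 over all tested genes.

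For all 43 tested genes the 95% confidence interval of the log2 fold change lay within 0.5 of 0, a change of 1.41-fold in either direction, and for 27 it lay within 0.25. Among all 13215 tested genes, 11644 had an interval within 0.5 and 5571 within 0.25. On the scale used, a difference larger than 1.41-fold is thus outside the interval of every tested gene of the set. For low genes such as Diap2 the added 1 FPKM makes that bound too tight for the FPKM themselves. The bound is also not secure for Baiap2, whose interval ended at 0.49. With 0.01 FPKM added instead, the log2 fold change of Baiap2 rose from 0.27 to 0.30.

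**Figure D2:**
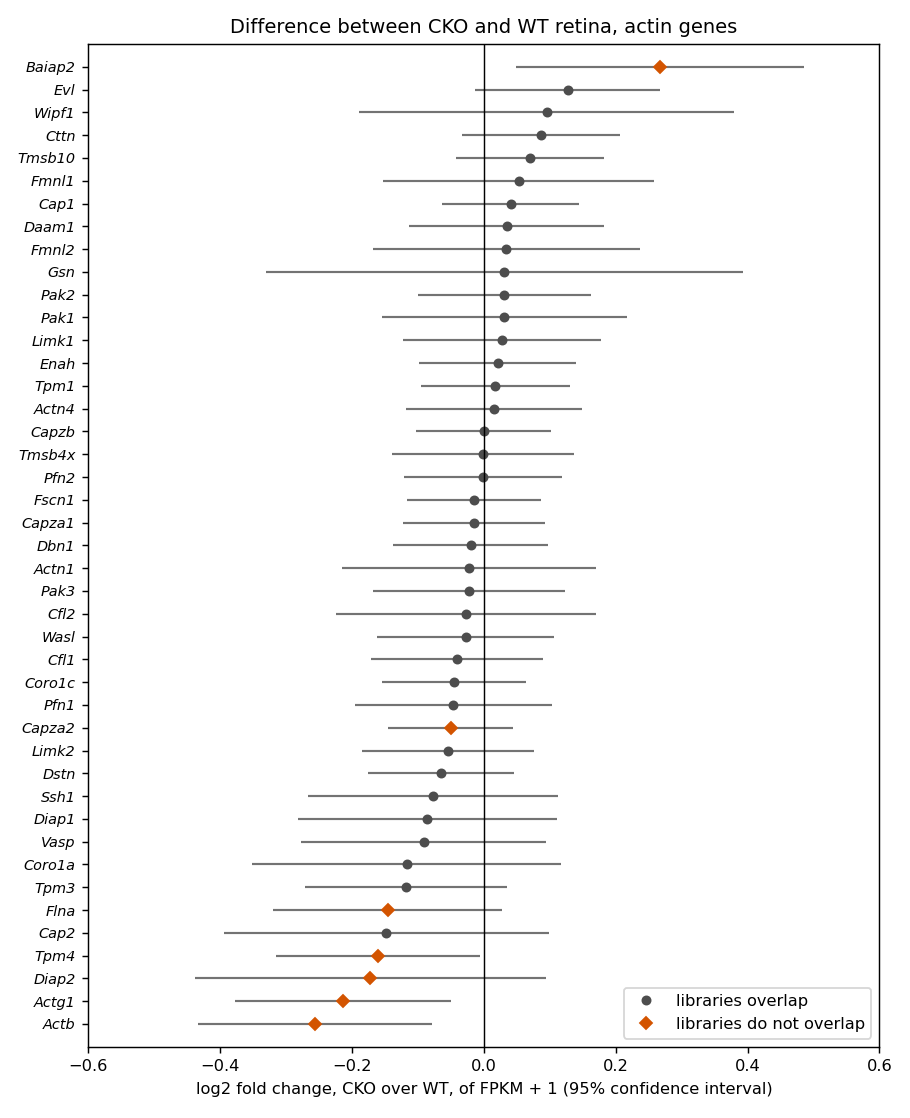
Log2 fold change (CKO over WT, on the scale of log2 FPKM + 1) of the 43 tested genes, with 95% confidence intervals from limma. Estimates run from -0.26 for Actb to 0.27 for Baiap2, and every interval stays within 0.5 of 0.

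Cofilins sever filaments and return monomers to the pool. Cfl1, the main non-muscle cofilin, was at 422, 426 and 464 FPKM in CKO libraries 1 to 3, against 427, 455 and 468 FPKM in WT libraries 1 to 3. The groups overlapped over nearly their whole range, and the log2 fold change was -0.041 (95% confidence interval -0.17 to 0.090). Destrin, a cofilin relative encoded by Dstn, had 115 to 126 FPKM in CKO and 124 to 131 FPKM in WT. Cfl2, best known from muscle, had 24.6 to 30.0 FPKM in CKO and 26.0 to 30.5 FPKM in WT. Cfl1 supplied 74.6% ± 0.91 of the summed FPKM of these 3 genes for CKO and 74.3% ± 0.36 for WT (SD, n = 3 each). Other genes share 23.0% of the 50-base stretches of Cfl1, and Snx32 on the opposite strand overlaps 16.5% of its exonic bases. Both shares can include the same bases, and the sources used here do not say whether counting used strand.

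Monomer-binding genes were among the most abundant of the set. Tmsb10, which encodes the monomer-sequestering thymosin beta-10, was at 623, 607 and 609 FPKM in CKO libraries 1 to 3, against 557, 609 and 587 FPKM in WT libraries 1 to 3. WT 2 lay among the CKO libraries, so the groups overlapped, and the log2 fold change was 0.070 (95% confidence interval -0.043 to 0.18). Its relative Tmsb4x, thymosin beta-4, had 397 to 414 FPKM in CKO and a wider 374 to 433 FPKM in WT. In 43.5% of its 50-base stretches Tmsb10 matched transcripts of other genes, whereas Tmsb4x had no such stretch.

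Profilins hand monomers to growing barbed ends. Pfn2, the form typical of neurons, had 151 to 157 FPKM in CKO and 144 to 159 FPKM in WT. The widely expressed Pfn1 had 97.3 to 112 FPKM in CKO and 103 to 114 FPKM in WT, which was 38.2% to 42.5% of the profilin sum over the 6 libraries. The cyclase-associated proteins help to recycle monomers from cofilin; Cap1 had 47.1 to 49.1 FPKM in CKO and 45.4 to 48.0 FPKM in WT, and Cap2 4.01 to 5.19 FPKM in CKO and 4.83 to 5.56 FPKM in WT. All 4 genes overlapped between the groups, with log2 fold changes between -0.15 for Cap2 and 0.041 for Cap1.

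Capping protein, a dimer of an alpha and a beta subunit, closes barbed ends. Its beta subunit gene Capzb was at 84.6, 83.0 and 85.3 FPKM in CKO libraries 1 to 3, against 81.5, 87.9 and 83.6 FPKM in WT libraries 1 to 3. The CKO libraries lay inside the range of the WT libraries, and the 95% confidence interval of the log2 fold change was -0.10 to 0.10. The alpha subunit gene Capza2 was at 53.8, 54.8 and 53.3 FPKM in CKO libraries 1 to 3, against 57.0, 55.3 and 55.5 FPKM in WT libraries 1 to 3. These groups did not overlap, yet the highest CKO and the lowest WT library were closer to each other than libraries within either group were spread. The log2 fold change of Capza2, which occupies chr6:17636234-17666972 on the plus strand (GRCm38), was -0.050 (95% confidence interval -0.14 to 0.045), with an unadjusted p of 0.258 and an adjusted p of 0.802 by limma. Capza1, the other alpha subunit gene, had 36.1 to 37.7 FPKM in CKO and 36.0 to 38.2 FPKM in WT, and 77.4% of its 50-base stretches occur in other genes. Gsn, gelsolin, which severs and caps, was low, with 1.87 to 2.202 FPKM in CKO and 1.45 to 2.61 FPKM in WT.

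Ena/VASP proteins keep barbed ends growing. Evl, the most abundant of their genes here, was at 65.4, 64.7 and 64.7 FPKM in CKO libraries 1 to 3, against 55.8, 65.0 and 57.7 FPKM in WT libraries 1 to 3. The CKO libraries were alike, and WT 2 stood with them and apart from WT 1 and WT 3. The log2 fold change of Evl was 0.13 (95% confidence interval -0.013 to 0.27, limma adjusted p = 0.671). Degs2 on the opposite strand overlaps 9.5% of its exonic bases. Enah, also called Mena, had 18.4 to 18.8 FPKM in CKO and 17.8 to 18.7 FPKM in WT, and Vasp 11.01 to 12.9 FPKM in CKO and 11.8 to 13.5 FPKM in WT, both with overlap.

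Formins nucleate and lengthen straight filaments. Daam1, a formin of the Wnt planar polarity pathway, led them at 27.4, 27.6 and 24.8 FPKM in CKO libraries 1 to 3, against 26.4, 27.0 and 24.4 FPKM in WT libraries 1 to 3. The groups overlapped, with the third library lowest in both, and the log2 fold change was 0.035 (95% confidence interval -0.11 to 0.18). Diap1, Fmnl2 and Fmnl1 averaged 7.70, 6.84 and 5.93 FPKM over the 6 libraries, with log2 fold changes of -0.086, 0.034 and 0.053.

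Diap2, the formin gene named Diaph2 in GENCODE, was at 0.974, 1.17 and 1.14 FPKM in CKO libraries 1 to 3, against 1.37, 1.37 and 1.34 FPKM in WT libraries 1 to 3. The groups did not overlap and the WT libraries were alike, but the level is near the limit for testing. Its log2 fold change was -0.17 (95% confidence interval -0.44 to 0.094), with an unadjusted p of 0.175 and an adjusted p of 0.769 by limma. The ratio of mean FPKM was 0.806, and the estimate depended on the added 1 FPKM. With 0.1 or 0.01 FPKM added instead, the log2 fold change of Diap2 was -0.29 or -0.31. Without the variance trend its unadjusted limma p was 0.025 (adjusted p 0.5565). The gene occupies chrX:129749742-130465834 on the plus strand (GRCm38).

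Tropomyosins run along filaments and govern which other proteins reach them. Tpm4 was at 17.9, 16.6 and 15.6 FPKM in CKO libraries 1 to 3, against 19.4, 18.0 and 18.8 FPKM in WT libraries 1 to 3. The groups did not overlap, though CKO 1 lay next to WT 2. The log2 fold change of Tpm4 was -0.16 (SE 0.067, 95% confidence interval -0.31 to -0.0053), with an unadjusted p of 0.0443 and an adjusted p of 0.621 by limma. It occupies chr8:72134975-72153142 on the plus strand (GRCm38), and 16.1% of its 50-base stretches occur in other genes.

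Tpm3 was at 62.2, 62.0 and 66.6 FPKM in CKO libraries 1 to 3, against 69.0, 63.5 and 75.2 FPKM in WT libraries 1 to 3. WT 2 lay among the CKO libraries, so the groups overlapped, and the log2 fold change was -0.12 (95% confidence interval -0.27 to 0.035). Other genes share 62.4% of its 50-base stretches. Tpm1 had 59.1 to 62.6 FPKM in CKO and 57.4 to 62.4 FPKM in WT. It made up 42.8% ± 0.61 of the tropomyosin sum for CKO, against 40.4% ± 2.4 for WT (SD, n = 3 each; exact permutation test, two-sided, p = 0.2). Tpm2, a muscle tropomyosin, was below the limit for testing, at 1.108, 0.672 and 0.498 FPKM in CKO libraries 1 to 3, against 0.453, 0.577 and 0.479 FPKM in WT libraries 1 to 3.

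Among genes that promote nucleation, Baiap2 was higher in every CKO library than in every WT library. It encodes IRSp53, which bends membranes and links Rac and Cdc42 to WAVE2 and to Ena/VASP proteins. Baiap2 was at 10.4, 9.17 and 9.89 FPKM in CKO libraries 1 to 3, against 7.64, 9.13 and 7.29 FPKM in WT libraries 1 to 3. CKO 2 and WT 2 were almost level, so the groups were only just apart. For Baiap2 the log2 fold change came to 0.27 (SE 0.095, 95% confidence interval 0.048 to 0.49), with an unadjusted p of 0.0228 and an adjusted p of 0.572 by limma. The gene occupies chr11:119942763-120006782 on the plus strand (GRCm38).

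Cttn encodes cortactin, which steadies branches. At 42.9, 44.5 and 46.4 FPKM in CKO libraries 1 to 3, against 40.3, 43.7 and 41.9 FPKM in WT libraries 1 to 3, it was the most abundant gene of this role. The groups overlapped through CKO 1 and WT 2, and the log2 fold change was 0.087 (95% confidence interval -0.033 to 0.21). Wasl, which encodes the widely expressed N-WASP, had 19.7 to 21.1 FPKM in CKO and 19.6 to 21.4 FPKM in WT, and Wipf1, whose product binds WASP and N-WASP, 1.27 to 1.70 FPKM in CKO and 1.25 to 1.47 FPKM in WT. Was, which encodes the WASP of blood cells, was at 0.0565 to 0.140 FPKM in CKO and 0.134 to 0.207 FPKM in WT. Beside it, microglia and macrophage markers (11 of 11 found) summed to 59.5 to 67.6 FPKM in CKO and 59.8 to 80.1 FPKM in WT.

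For the kinases that restrain cofilin and the phosphatase that releases it, the groups overlapped throughout. LIM kinases phosphorylate and silence cofilin; Limk2 was at 37.7, 40.4 and 40.3 FPKM in CKO libraries 1 to 3, against 40.3, 39.3 and 43.6 FPKM in WT libraries 1 to 3. Limk1 had 14.9 to 15.7 FPKM in CKO and 13.8 to 15.6 FPKM in WT. Pak1, Pak2 and Pak3, Rac and Cdc42 effector kinases upstream of LIM kinase, averaged 17.7, 21.8 and 20.0 FPKM over the 6 libraries, so that no single form dominated. Ssh1, the slingshot phosphatase, had 8.09 to 9.58 FPKM in CKO and 9.24 to 10.1 FPKM in WT. Log2 fold changes of the 6 genes lay between -0.077 for Ssh1 and 0.031 for Pak2.

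Crosslinkers and side-binding proteins shape filaments into bundles and nets. Flna, filamin A, which ties filaments into a loose net under the membrane, was at 19.5, 23.2 and 23.4 FPKM in CKO libraries 1 to 3, against 23.9, 24.6 and 24.7 FPKM in WT libraries 1 to 3. The groups did not overlap, with CKO 1 below all others and the remaining CKO libraries close under WT. Its log2 fold change was -0.15 (95% confidence interval -0.32 to 0.028), with an unadjusted p of 0.0885 and an adjusted p of 0.699 by limma. Without CKO 1 the log2 fold change was -0.064. Flna occupies chrX:74223461-74249820 on the minus strand (GRCm38).

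Fscn1, the filopodial bundler fascin, was at 62.5, 59.8 and 59.8 FPKM in CKO libraries 1 to 3, against 60.5, 63.1 and 60.3 FPKM in WT libraries 1 to 3. The groups overlapped, and the 95% confidence interval of the log2 fold change was -0.12 to 0.086. The alpha-actinins crosslink filaments; Actn4 had 49.6 to 54.0 FPKM in CKO and 48.0 to 53.9 FPKM in WT, and Actn1 11.1 to 11.9 FPKM in CKO and 11.01 to 13.3 FPKM in WT. Dbn1, drebrin, a filament-binding protein of dendritic spines, had 40.5 to 42.1 FPKM in CKO and 40.0 to 44.0 FPKM in WT. The coronin genes Coro1c, with 32.3 to 33.4 FPKM in CKO and 32.9 to 35.1 FPKM in WT, and Coro1a, abundant in leukocytes, with 7.80 to 10.1 FPKM in CKO and 8.93 to 10.5 FPKM in WT, overlapped as well. Log2 fold changes of these 6 genes lay between -0.12 for Coro1a and 0.016 for Actn4.

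**Figure D3:**
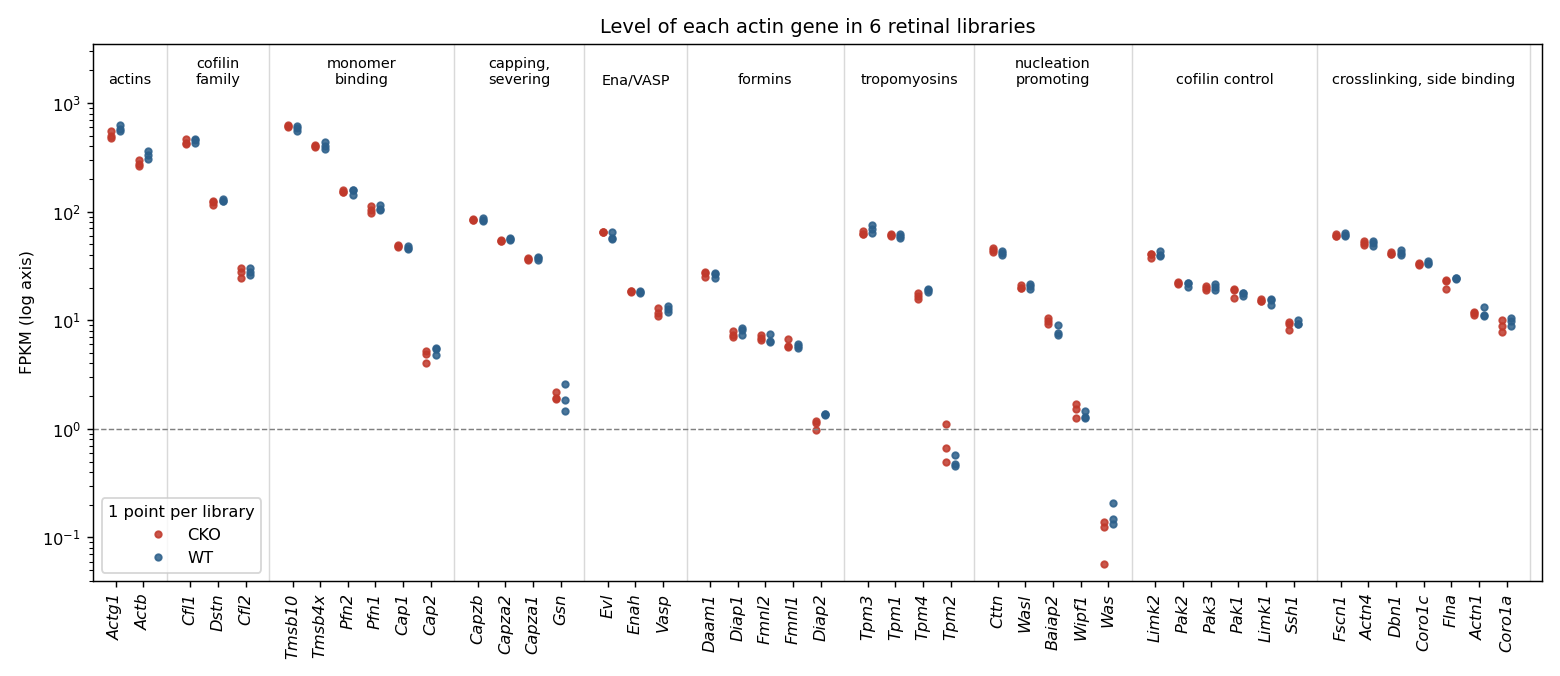
FPKM on a log axis of all 45 genes, grouped by role, with 1 point per library and CKO left of WT; the line marks 1 FPKM, the limit for testing. Levels span from under 1 FPKM for Was and Tpm2 to 549.8 and 599 FPKM on average for Actg1 and Tmsb10, and differences between genes far exceed those between genotypes.

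Paralogs were also compared by share. For each of 12 families the share of the summed FPKM held by 1 gene was set against the other genotype, and the CKO and WT libraries overlapped in all 12. Ena/VASP and tropomyosin genes had the widest differences in mean share, 2.4 percentage points for Evl (68.2% ± 0.83 for CKO, 65.8% ± 2.6 for WT; SD, n = 3 each) and 2.38 for Tpm1. Exact permutation tests gave p-values of 0.2 to 1.0, and 0.686 to 1.0 after Benjamini-Hochberg adjustment over the 12 families. With 3 against 3 libraries an exact permutation test cannot go below p = 0.1.

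**Figure D4:**
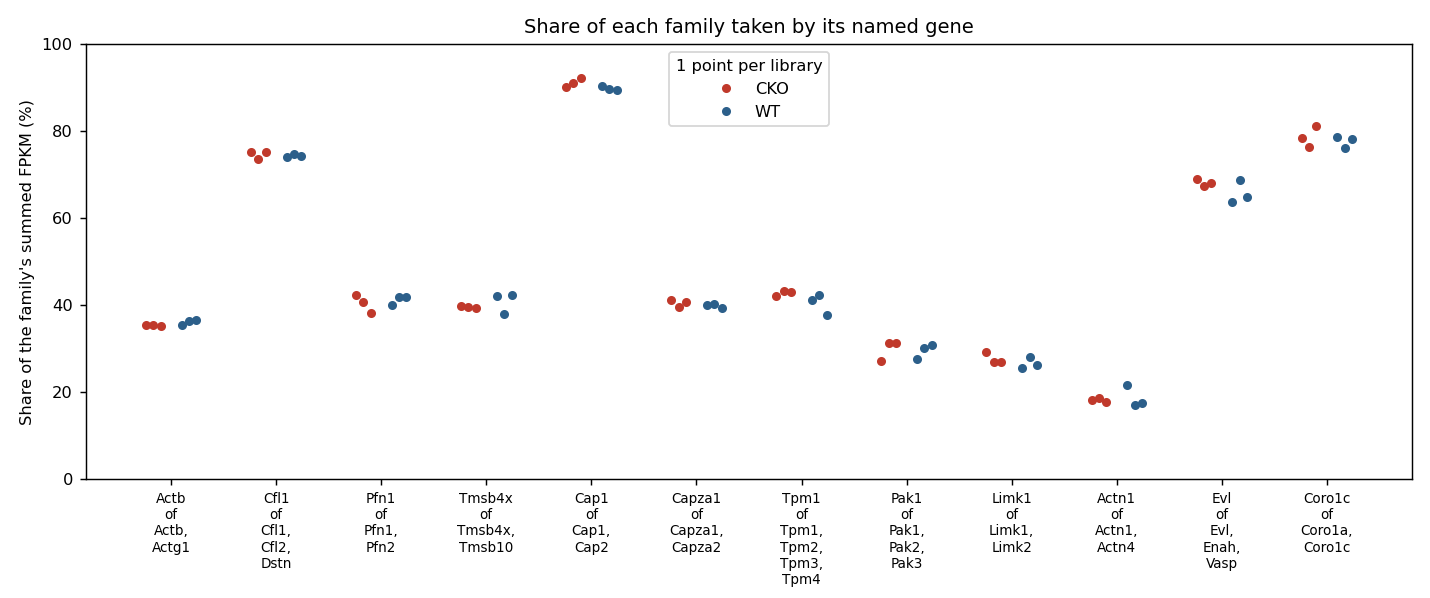
Share (%) of a family's summed FPKM held by the named gene, 1 point per library, CKO left of WT, with the family under each name. Mean shares range from 18.3% ± 0.52 for CKO and 18.7% ± 2.5 for WT (Actn1) to 91.1% ± 0.98 for CKO and 89.8% ± 0.52 for WT (Cap1; SD, n = 3 each), and the libraries of both groups overlap in every family.

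A wider list of 132 actin-related genes outside the set was examined in the same fit; 123 were found and 104 tested. None of these passed an adjusted p of 0.05 by limma. With an unadjusted p below 0.05, 2 were higher in CKO (1.92%, against 3.52% of all tested genes) and 4 lower (3.85%, against 4.36%). The median log2 fold change was 0.0143. Nf2, which encodes merlin, a tumour suppressor that links membrane to actin, was at 35.9, 35.5 and 36.1 FPKM in CKO libraries 1 to 3, against 39.2, 38.7 and 39.4 FPKM in WT libraries 1 to 3. Both groups were tight and did not overlap (log2 fold change -0.12, limma adjusted p = 0.554).

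Pdxp, chronophin, a phosphatase that activates cofilin, had 68.3 to 72.7 FPKM in CKO and 75.3 to 79.6 FPKM in WT. Coro6, a coronin, had 2.94 to 4.72 FPKM in CKO and 5.09 to 5.74 FPKM in WT, and Cdc42, a small GTPase upstream of N-WASP and the PAK kinases, 117 to 127 FPKM in CKO and 129.6 to 141 FPKM in WT. On the higher side stood Srgap3, a Rac GTPase-activating protein that also bends membranes, with 57.6 to 60.3 FPKM in CKO and 53.9 to 55.0 FPKM in WT. It was followed by the formin Daam2 (2.55 to 2.77 FPKM in CKO, 1.86 to 2.36 FPKM in WT), the cortactin relative Hcls1 (6.76 to 8.59 FPKM in CKO, 5.03 to 6.74 FPKM in WT) and the actin-binding LIM protein Ablim3 (10.64 to 11.02 FPKM in CKO, 9.01 to 10.58 FPKM in WT). The limma adjusted p-values of these 8 genes, which were taken by smallest p, ran between 0.545 and 0.697. In the whole list the groups did not overlap for 13 of 104 genes (12.5%, against 13.9% of all tested genes), 8 higher and 5 lower in CKO, which is near the background.

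Markers of several retinal cell types differed in summed level between the same libraries. Sums were lower in every CKO library for cones (8 of 8 markers found, 635 to 699 FPKM in CKO, 702 to 786 FPKM in WT), ganglion cells (11 of 11, 862 to 881 FPKM in CKO, 940.4 to 1007 FPKM in WT) and horizontal cells (7 of 7, 167 to 186 FPKM in CKO, 189 to 198 FPKM in WT). Fold changes lay below 0 for 8 of 8 cone, 10 of 11 ganglion cell and 6 of 7 horizontal cell markers. Most of the horizontal cell sum came from Sept4, which alone averaged 135 FPKM over the 6 libraries. Cone bipolar sums (7 of 7) were also lower, 249 to 261 FPKM in CKO and 270.1 to 282 FPKM in WT, with 7 of 7 markers below 0. The rod bipolar sum (6 of 6) was 529.6 to 547 FPKM in CKO and 575 to 603 FPKM in WT, but 4 of its 6 markers had fold changes above 0, and Pcp2 alone averaged 281 FPKM over the 6 libraries. Sums were higher in every CKO library for amacrine cells (8 of 8, 500.0 to 514 FPKM in CKO, 431 to 455 FPKM in WT) and Muller glia (9 of 9, 2429 to 2638 FPKM in CKO, 2219 to 2335 FPKM in WT). Fold changes lay above 0 for 8 of 8 amacrine and 6 of 9 Muller glia markers. Of all these markers 1 passed an adjusted p of 0.05, the glial Dkk3. It is part of the Muller glia sum, in which Glul alone averaged 968 FPKM over the 6 libraries. The glial sum without Dkk3 was not taken.

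Sums overlapped for endothelium (7 of 7, 113 to 121 FPKM in CKO, 116 to 124 FPKM in WT), pericytes and smooth muscle (9 of 9, 37.7 to 47.5 FPKM in CKO, 37.2 to 44.2 FPKM in WT) and astrocytes (4 of 4, 24.2 to 34.5 FPKM in CKO, 24.5 to 52.9 FPKM in WT). They also overlapped for lens (8 of 8, 29.0 to 57.7 FPKM in CKO, 48.2 to 271 FPKM in WT), erythrocytes (4 of 5, 12.8 to 21.1 FPKM in CKO, 17.2 to 30.7 FPKM in WT), pigment epithelium (10 of 10, 13.4 to 17.8 FPKM in CKO, 9.32 to 17.1 FPKM in WT) and skeletal muscle (6 of 6, 4.37 to 6.20 FPKM in CKO, 3.34 to 5.80 FPKM in WT). T cell, B cell and neutrophil markers (6 of 7) summed to 0.532 to 0.744 FPKM in CKO and 0.283 to 1.25 FPKM in WT, with Cd3e and Cd3d listed at 0. Cornea and conjunctiva markers (5 of 5) summed to 0.490 to 0.988 FPKM in CKO and 0.330 to 0.474 FPKM in WT, with Krt5, Krt14 and Kera listed at 0. These sums did not overlap and were higher in CKO, at levels below the limit for testing. The part of these differences in the levels of the actin genes was not tested.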

How the data were processed

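Per the labels' protocols, total RNA was isolated from retina by TRIzol and made into libraries by a stranded TruSeq mRNA kit. Per the submitters' processing notes, the tools were Cufflinks 2.2.1, TopHat2 2.0.13, SAMtools 1.11 and Bowtie2 2.3.5.1 and the build mm10, with no roles; the sources used here give no annotation, parameters or use of strand. The authors deposited FPKM, 1 value per symbol and library. In WT 3, 27 symbols altered in the deposited table were restored.

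Values were transformed to log2(FPKM + 1), which understates changes of low genes. Genes averaging 1 FPKM or more (13215) entered a two-sided limma fit (version 3.58.1, R 4.3.3) with a variance trend and no covariate, with Benjamini-Hochberg adjustment over all of them. The fit was run on simulated data, with a pass set only by changes far larger than any seen in the set. That pass does not bear on smaller changes. Shares were compared by exact permutation in SciPy 1.17.1. Genes were matched to GENCODE M21, 2 of 45 (Diap1, Diap2) through a synonym, Diaph1 and Diaph2. Alternatives changed pseudocount, filter, scaling, variance model or weights, added a replicate block or left out 1 library. FPKM are not counts, so no count test was run.

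The genes, lists and alternatives were chosen with earlier results of these data known. Levels in each library are given for genes of the set with an unadjusted p under 0.05, genes whose groups did not overlap and the most abundant gene of each role; of the wider list, the 4 genes of smallest p in each direction are named. Tpm2 and, of the wider list, Nf2 are given in each library as well, chosen after their values were seen. The summed level of rod photoreceptor markers is not reported here.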

Additional observations from a re-analysis of the deposited data

How the results depend on the processing

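No gene of the set passed an adjusted p of 0.05 in any of the 16 alternative fits, and the lowest adjusted p was 0.289, nor did any gene of the wider list. Actb kept its direction throughout (log2 fold change -0.32 to -0.19, adjusted p 0.289 to 0.802), as did Actg1 (-0.27 to -0.16), Tpm4 (-0.21 to -0.11) and Baiap2 (0.21 to 0.35). Of the 16 alternatives, the unadjusted limma p was under 0.05 in 16 for Actb, 13 for Actg1, 11 for Tpm4 and 11 for Baiap2. The sign held in every fit for 24 of 43 genes and changed for 19, whose log2 fold changes lay between -0.0467 and 0.0528. The count at an unadjusted p under 0.05, an alternative chosen after seeing the data, was 1 to 6 genes when a library was left out, 1 without WT 3 and 6 without WT 2. Without 1 library, 10 to 13 genes did not overlap, 23.3% to 30.2% of the set against 22.0% to 25.9% of all tested genes.

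The count of all genes past the threshold was 3, 1 without the variance trend and 1 to 4 with a library left out (1 without WT 2). The median of the set was -0.0086 under quantile normalization and -0.0405 to -0.0097 with a library left out. With sample weights, log2 fold changes turned to 0.0251 for Cfl2, 0.0061 for Pfn2, 0.0082 for Tmsb4x, -0.016 for Capzb and 0.0056 for Actn1. With quantile normalization they turned to 0.0166 for Tmsb4x and 0.0061 for Fscn1. The cause was not tested.

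Leaving out 1 library gave ranges that crossed 0 for Cfl2 (-0.09 to 0.0469), Pfn1 (-0.1006 to 0.0027), Pfn2 (-0.0499 to 0.0228), Tmsb4x (-0.0561 to 0.0505), Capza1 (-0.0372 to 0.0036), Capzb (-0.0239 to 0.0301), Gsn (-0.0994 to 0.1814), Daam1 (-0.0073 to 0.0825), Fmnl1 (-0.0139 to 0.0944) and Fmnl2 (-0.0024 to 0.1026). The same was seen for Tpm1 (-0.0135 to 0.046), Limk1 (-0.0218 to 0.058), Pak1 (-0.017 to 0.1128), Pak2 (-0.0124 to 0.0543), Pak3 (-0.059 to 0.0188), Fscn1 (-0.0356 to 0.0061), Actn1 (-0.065 to 0.0587), Actn4 (-0.0291 to 0.0528) and Dbn1 (-0.0497 to 0.0178). Of the 24 genes that kept their sign, 17 moved by over 1.5 times when 1 library was left out. Those with a log2 fold change beyond 0.1 in size were Cap2 (-0.211 without CKO 1, -0.0593 without CKO 3), Evl (0.0828 without WT 1, 0.1913 without WT 2), Tpm3 (-0.1773 without WT 2, -0.0579 without WT 3), Flna (-0.189 without CKO 3, -0.0637 without CKO 1) and Coro1a (-0.1986 without CKO 2, -0.0333 without CKO 3). The others were Cfl1, Dstn, Tmsb10, Cap1, Enah, Vasp, Diap1, Wasl, Wipf1, Limk2, Ssh1 (-0.1192 without CKO 2, -0.0097 without CKO 3) and Coro1c.

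The labels number the samples 1 to 3 in both groups. Same-numbered samples deviated from their group means with correlations of 0.072, 0.006 and 0.101 over 13215 genes. Samples of different number gave -0.119 to 0.036. Actb and Actg1 rose from library 1 to library 3 in both groups. These values do not settle whether the numbers mark pairs, and the main fit took none. With the replicate block, 0 genes of the set and 2 of all genes passed. The unadjusted limma p of Actb fell from 0.0106 to 0.000546 with the block (adjusted p 0.289). That of Actg1 fell from 0.0167 to 0.00147 (adjusted p 0.301). For Tpm4 it fell from 0.0443 to 0.0351, and for Baiap2 it rose from 0.0228 to 0.0376. An unadjusted p under 0.05 was then reached by 5 genes of the set, 11.6% against 9.62% of all tested genes. In the main fit these were 4 genes, 9.3% against 7.88%. Without read counts, single values carry no counting interval, and low genes such as Diap2, Wipf1 and Gsn are the least certain.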
